A study of Mus musculus with 16 samples.

Results

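The genes described here encode the subunits of the brain's glutamate and GABA receptors. Members were the protein-coding genes whose symbols follow the naming scheme of these families (Gria, Grik, Grin, Grid, Grm, Gabr and Gabbr), which gave 46 of the 40481 genes in the table. By class they were 4 AMPA, 5 kainate, 7 NMDA, 2 delta, 8 metabotropic glutamate, 18 GABA-A and 2 GABA-B receptor genes. The choice used names only and no measured value.

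The RNA came from brain tissue of C57BL mice (C57BL/6J per the study), which per the study were male and were bought at 18 months of age. Adropin is a secreted peptide, and treated mice received its residues 34 to 76 at 90 nmol/kg/d by 1 intraperitoneal injection a day, for 2 weeks before behavioural tests and then throughout them. Control mice received the saline diluent. Each group began with 15 mice, and 8 of each are compared here. All mice were aged, so the comparison contains no young group, and the peptide was given outside the brain. Which part of the brain was sampled from each mouse is not given in the sources used here.

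Glutamate opens the ion channels of the AMPA, kainate and NMDA receptors, each built from 4 subunits encoded by genes of its class. It acts more slowly through the metabotropic receptors, which couple to G proteins. GABA, the main inhibitory transmitter, opens the chloride channels of the GABA-A receptors and signals through the G protein-coupled GABA-B receptor, an obligate pair of Gabbr1 and Gabbr2. Which subunits a cell makes differs between brain regions and changes with development, and the subunit makeup sets a receptor's kinetics, location and drug response. Protein levels, splicing and RNA editing of these receptors were not measured here.

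Library totals ranged from 35026503 to 70314050 counts, and the deepest 2 libraries were adropin mice 1_3 and 5_5 (the labels identify each mouse by 2 numbers). Receptor genes held between 0.530% and 0.627% of all counts with adropin and between 0.494% and 0.612% in controls. Markers of the cortex (6 of 6), hippocampus (8 of 8) and striatum (9 of 9) passed the filter on low counts, whereas 5 of 9 cerebellar, 2 of 7 hypothalamic and 2 of 8 midbrain and hindbrain markers did. Saline mouse 8_3 stood apart, with a cerebellum marker score of 3.40 (mean z-score over the markers) against at most 0.110 in the other mice, and with the highest choroid plexus score, 2.86. Calls that change without this mouse are given with and without it. In pieces of tissue, fewer cells of a type and less RNA per cell cannot be told apart.

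Promoter sequences are shown for 3 genes that mark the range of the family. Grik3 is the gene with the smallest p among those in the promoter table, Gabbr1 had the highest level of all members, and Gabra6 was almost absent from 15 mice. The sequences are RefSeq's on GRCm38.p6 and are the 150 bases just before the RefSeq start, 5′ to 3′ on the gene's strand, with GC boxes (GGGCGG on either strand) in capitals. None of these stretches overlaps an annotated exon.
Grik3, chr4:125490546-125490695, plus strand: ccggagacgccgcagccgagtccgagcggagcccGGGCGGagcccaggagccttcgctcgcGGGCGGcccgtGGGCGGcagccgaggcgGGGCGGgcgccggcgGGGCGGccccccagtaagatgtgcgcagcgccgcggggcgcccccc
Gabbr1, chr17:37045816-37045965, plus strand: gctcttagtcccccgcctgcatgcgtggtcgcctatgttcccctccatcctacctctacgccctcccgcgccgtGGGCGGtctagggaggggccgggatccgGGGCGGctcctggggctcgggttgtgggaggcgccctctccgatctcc
Gabra6, chr11:42321073-42321222, minus strand: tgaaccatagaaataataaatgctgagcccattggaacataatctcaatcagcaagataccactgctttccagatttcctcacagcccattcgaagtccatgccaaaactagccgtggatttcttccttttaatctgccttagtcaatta

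The Grik3 stretch held 5 GC boxes and that of Gabbr1 held 2, whereas that of Gabra6 held 0. Over the 300 bases from 250 before to 50 after the start, GC content was 82.0% for Grik3, 67.3% for Gabbr1 and 42.0% for Gabra6. The promoter table held 31 of the 46 members. A GC box was present in 18 of these (58.1%), against 35.9% of all 27025 promoters of the same length. TATAAA, searched on both strands, was present in 3 members (9.68%) and in 14.2% of all promoters, and the cAMP response element TGACGTCA was present in 0 members and in 1.88% of all promoters. The 8 members below the filter on low counts were all in the table, and 6 of them had a promoter GC content under 50%. Of the 23 members in the table that passed the filter, 2 (Gabrg1 and Gabra3) did, as did 39.8% of all promoters. These are descriptions of the letters in the window and carry no test.

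Levels between genes were compared as TMM-normalized CPM (counts scaled to the library's total, corrected by edgeR's TMM factors) per kb of summed exon length. On this scale the GABA-B pair was the most abundant, with mean levels over the 16 mice of 105 for Gabbr1 and 67.6 for Gabbr2. Within the AMPA class, levels fell in the order Gria1 (61.7), Gria2 (35.3), Gria3 (18.2) and Gria4 (12.2). Grik5, a high-affinity kainate subunit that forms channels only with other subunits, had 60.0, far above Grik3 (13.4), Grik4 (5.95), Grik2 (2.90) and Grik1 (1.46). Among NMDA subunits the obligatory Grin1 had 42.5. Grin2b, the GluN2B subunit typical of early life and of the forebrain, had 24.5, Grin2c had 11.7 and Grin2d had 4.39. Grin2a, the GluN2A subunit that becomes common in the mature brain, had 1.25 per kb. The lengths join the exons of all annotated transcripts (17933 bases for Grin2a and 24842 for Grin2b). Which transcripts were present was not measured, so levels compared between genes are approximate.

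**Figure D1:**
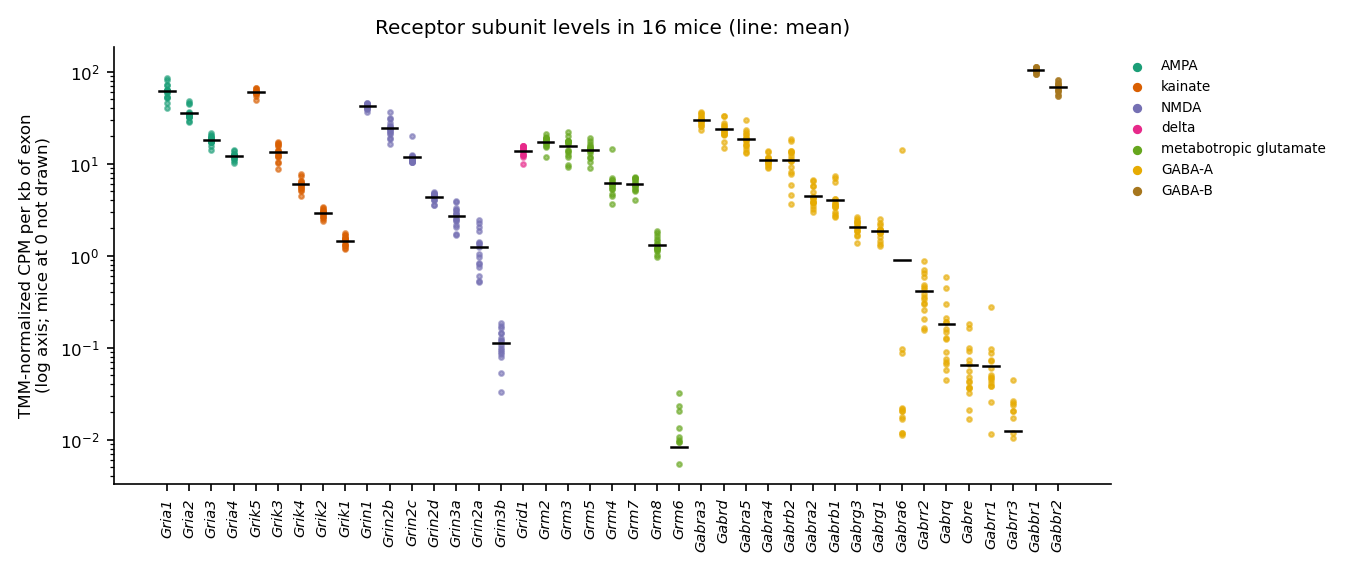
Level of 41 of the 46 receptor genes in the 16 mice, as TMM-normalized CPM per kb of exon on a log axis, grouped by receptor class and coloured by it. Points are mice, lines are means, and mice at 0 are not drawn. Gabbr1 (105) and Gabbr2 (67.6) lie at the top, and Gabra6 shows 1 mouse far above the rest.

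Of the metabotropic genes, Grm2 (17.4), Grm3 (15.4) and Grm5 (14.1) were highest and Grm8 (1.32) was lowest of those tested. Grid1, of the delta class, had 13.8. The GABA-A genes are listed only in part, and their highest member is not named. Gabrd, the delta subunit found outside the synapse, had 23.6, and Gabra3 lay above it. Gabra5 had 18.6, Gabra4 10.9 and Gabrb2 10.9, whereas Gabra2, Gabrb1, Gabrg3 and Gabrg1 ranged from 4.47 down to 1.83. The levels of the mice overlapped between some neighbours in these orders (Gria1 and Gria2, Grm2 and Grm3). They did not between others (Gabbr1 and Gabbr2, Gria2 and Gria3, Grik5 and Grik3, Grin2c and Grin2d). Grin2b and Grin2c overlapped only through the Grin2c level of saline mouse 8_3.

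Of the 46 genes, 38 passed the filter of more than 1 CPM in at least 7 mice. The other 8 were Gabra6, Gabrr1, Gabrr2, Gabrr3, Gabre, Gabrq, Grin3b and Grm6. The rho subunits (Gabrr1 to Gabrr3) and Grm6 are best known from the retina. Grm6 had at most 6 reads in any mouse, Gabrr3 at most 8 and Gabrr1 at most 23. Gabrq reached 137 reads in saline mouse 5_3 and passed 1 CPM in 6 mice, and Gabrr2 passed it in 5 mice. Grin3b, with 4 to 29 reads, shares 1059 exon bases with Tmem259 on the other strand, and whether counting used strand is not given, so its reads are uncertain.

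The comparison of adropin with saline asked whether the peptide altered the brain transcriptome of aged mice. Among the 38 tested receptor genes, 3 were higher in adropin-treated mice at an unadjusted p below 0.05: the NMDA subunits Grin2a and Grin2b and the kainate subunit Grik3. No member was lower at that threshold. These 3 are 7.89% of the tested members, and over all 14949 genes tested 3.99% passed in either direction and 1.86% were higher. At an adjusted p below 0.05, edgeR's quasi-likelihood test called 0% of all genes and 0 members, as did limma-voom, whereas DESeq2 called 5 genes and 0 members. The study's cut-off was a fold change above 1.5 with an unadjusted p below 0.05. In edgeR it was passed by 1 member (Grin2a) and by 0.421% of all genes. The study used limma, and its own gene count was not compared.

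Fold changes lay above 0 for 29 of the 38 members (76.3%), against 49.2% of all genes tested, and their median log2 fold change was 0.06 against -0.0019 over all genes. Members share mice and vary together, so they are not independent, and no test was made of this split. It moved with the scaling, since 26 members lay above 0 with DESeq2 size factors and 25 with library size only, where the median over all genes was -0.01 and -0.02. The classes had medians of 0.10 for GABA-A (12 tested, 9 above 0), 0.09 for GABA-B, 0.07 for NMDA, 0.06 for metabotropic, 0.04 for AMPA and 0.03 for kainate genes. Of the 7 class medians 6 were above 0.

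**Figure D2:**
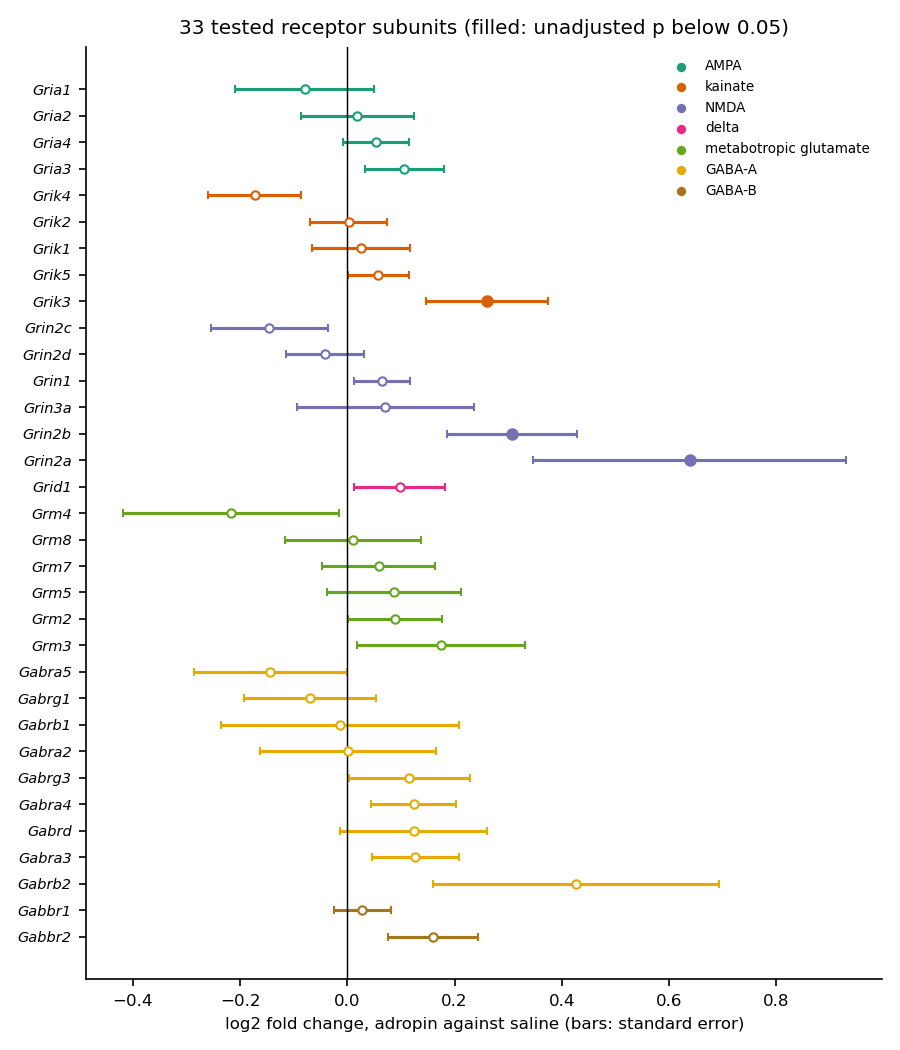
Log2 fold change of 33 of the 38 tested receptor genes, adropin against saline, with standard errors, ordered within each receptor class (edgeR quasi-likelihood fit on 8 mice a group). Filled points are the 3 genes at an unadjusted p below 0.05, which run from 0.26 for Grik3 to 0.64 for Grin2a.

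Grin2a (chromosome 16, 9567898 to 9995560, minus strand, GRCm38) had a lowest, median and highest level of 9.44, 25.1 and 43.3 TMM-normalized CPM in adropin-treated mice and of 9.21, 14.8 and 36.5 in saline-treated mice. The ranges overlapped almost completely, but 7 of 8 adropin mice lay above the saline median, the exception being mouse 4_3. Means were 27.3 ± 11.5 and 17.6 ± 8.70 CPM (SD, n = 8 each). The log2 fold change was 0.64 with a standard error of 0.29 (edgeR quasi-likelihood test, unadjusted p = 0.0416, adjusted p = 0.874). With DESeq2 it was 0.63 with an unadjusted p of 0.0546, so neither the call nor the study's cut-off was met there. The call was also lost in 9 of 16 edgeR fits that left out 1 mouse. These gave 0.54 without adropin mouse 1_3, 0.64 without saline mouse 2_3, 0.60 without adropin mouse 2_4, 0.54 without saline mouse 5_4 and 0.52 without adropin mouse 5_5, and 0.60 without saline mouse 6_1, 0.60 without 6_2, 0.59 without 8_1 and 0.56 without 8_3.

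Grin2b (chromosome 6, 135713233 to 136173511, minus strand) was among the most strongly counted members, with at least 17264 reads in every mouse. Its lowest, median and highest level was 535, 617 and 917 CPM with adropin and 409.8, 542 and 681 CPM with saline. Adropin mouse 5_5 was the highest of all and saline mouse 8_3 the lowest, and the groups overlapped between 535 and 681 CPM. The log2 fold change was 0.31 with a standard error of 0.12 (edgeR quasi-likelihood test, unadjusted p = 0.0209, adjusted p = 0.874). Of the 3 called members it was the one called most often when 1 mouse was left out, in 15 of 16 fits, the exception being that without adropin mouse 5_5 (0.24, unadjusted p = 0.0533 in edgeR).

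Grik3 (chromosome 4, 125490700 to 125714173, plus strand), which encodes the low-affinity kainate subunit GluK3, had a lowest, median and highest level of 93.8, 132 and 152 CPM with adropin and of 78.2, 109 and 147 CPM with saline. All adropin mice but 4_3 lay above the saline median, and saline mouse 5_3 lay among the highest adropin mice. The log2 fold change was 0.26 with a standard error of 0.11 (edgeR quasi-likelihood test, unadjusted p = 0.0342, adjusted p = 0.874). The call was lost without adropin mice 2_1 (0.23), 2_4 (0.24), 5_5 (0.25) or 7_4 (0.25) and without saline mice 2_3 (0.25), 5_4 (0.22), 8_1 (0.25) or 8_3 (0.20).

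**Figure D3:**
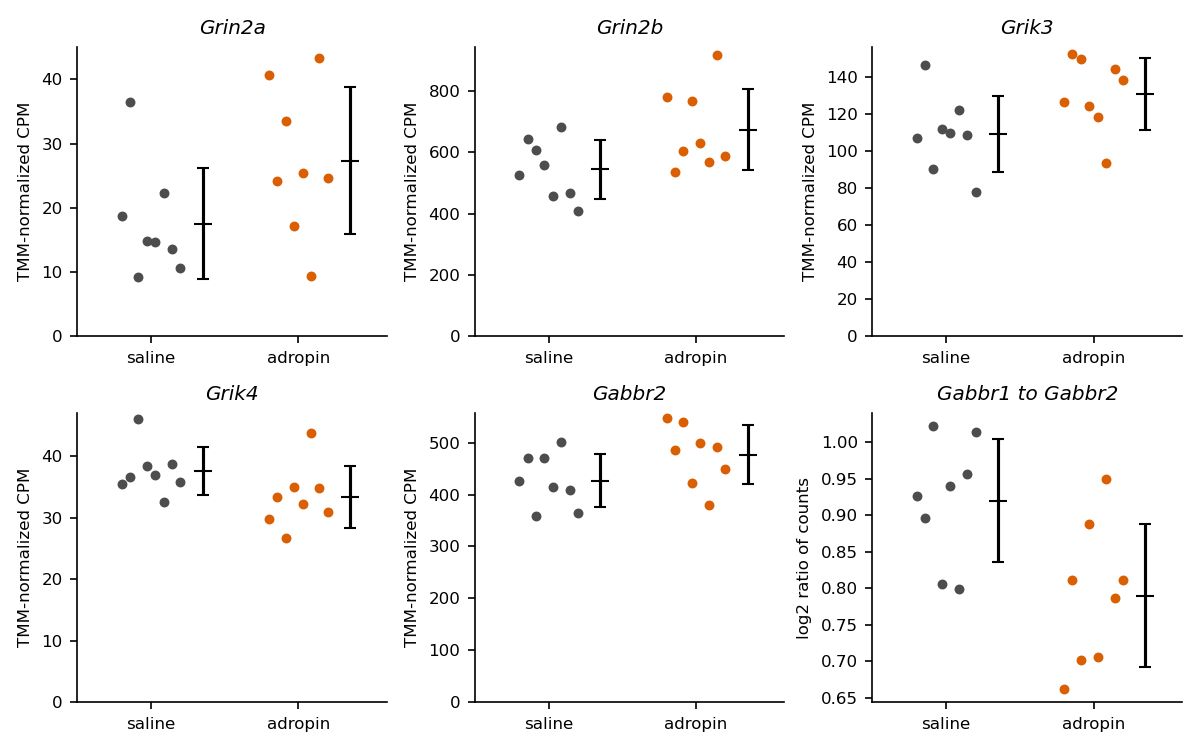
Level in every mouse of Grin2a, Grin2b, Grik3, Grik4 and Gabbr2 (TMM-normalized CPM) and the log2 ratio of Gabbr1 to Gabbr2 counts, by group, with the mean and SD beside the points (n = 8 each). All 6 panels overlap between groups, and adropin mouse 4_3 lies at the saline end of its group for Grin2a (9.44), Grik3 (93.8) and Grik4 (43.8).

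The calls were repeated without the 2 deepest libraries and with an offset for exon length. The 2 deepest libraries were adropin mice 1_3 and 5_5, which also had the highest levels of Grin2a (40.7 and 43.3 CPM) and of Grin2b (778 and 917 CPM), so depth was not tested apart from these mice. Without them 0 members were called in edgeR at an unadjusted p below 0.05, with log2 fold changes of 0.36 for Grin2a (unadjusted p = 0.246), 0.18 for Grin2b (unadjusted p = 0.131) and 0.25 for Grik3 (unadjusted p = 0.0713). Over all genes the median log2 fold change rose from -0.08 for genes of up to 2000 exon bases to 0.09 for those over 16000, a bin that holds 311 genes and 3 members, Grin2a and Grin2b among them. With a smooth offset for exon length in each mouse, an alternative chosen after seeing the data, the log2 fold change was 0.55 for Grin2a (unadjusted p = 0.0381), 0.20 for Grin2b (unadjusted p = 0.101) and 0.21 for Grik3 (unadjusted p = 0.0225), and 22 of 38 members lay above 0 with a median of 0.02. Without saline mouse 8_3, 1 member was called (Grin2b, 0.26, unadjusted p = 0.0439), which is 2.63% of members against 2.77% of all genes in that fit.

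**Figure D4:**
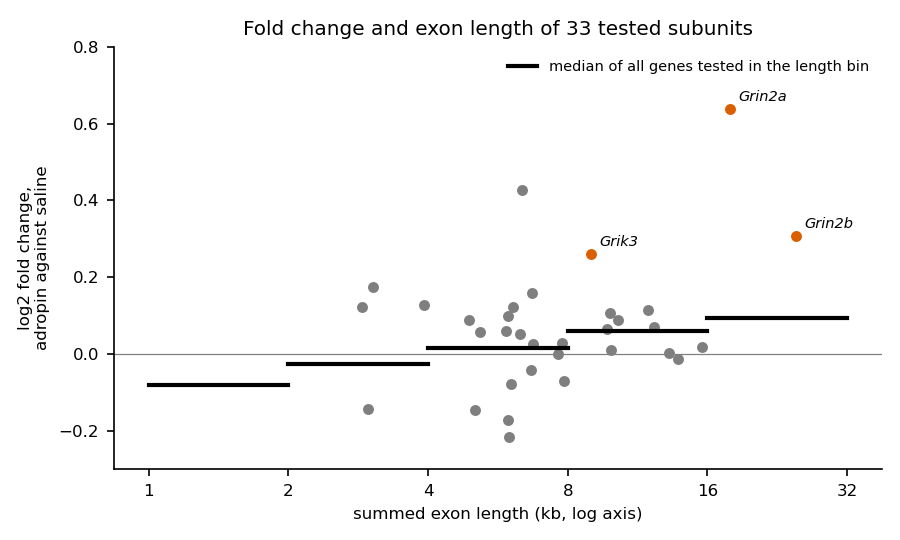
Log2 fold change of 33 of the 38 tested receptor genes against summed exon length in kb (log axis). Orange points are the 3 genes at an unadjusted p below 0.05, grey points other members, and black lines the median of all genes tested in 5 length bins, which rises from -0.08 to 0.09.

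The remaining kainate and NMDA genes did not pass. Grik4, which encodes the high-affinity subunit GluK4 of hippocampal CA3 synapses, had a lowest, median and highest level of 26.7, 32.8 and 43.8 CPM with adropin and of 32.6, 36.7 and 46.1 CPM with saline. Its log2 fold change was -0.17 with a standard error of 0.09 (edgeR quasi-likelihood test, unadjusted p = 0.0611), and 7 of 8 adropin mice lay below the saline median. It was past 0.05 with limma-voom (-0.18, unadjusted p = 0.0475) and without adropin mouse 4_3 (-0.23, unadjusted p = 0.00544) or saline mouse 7_1 (-0.20, unadjusted p = 0.0370). Grik5 had 295 to 348 CPM (median 312) with adropin and 254 to 341 (median 307) with saline, a log2 fold change of 0.06, or 0.02 without saline mouse 8_3. Grik1 and Grik2 had log2 fold changes of 0.03 and 0.0027. Grin1 had 380.2 to 445 CPM (median 429) with adropin and 358 to 436 (median 402) with saline. It differed by 0.06 with a standard error of 0.05, Grin3a by 0.07, Grin2d by -0.04 and Grin2c by -0.15.

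AMPA receptor genes were close between groups. Gria3 had the smallest p of the class, with levels of 169 to 215 CPM (median 184) with adropin and 138 to 203 (median 172) with saline and a log2 fold change of 0.11 (standard error 0.07, edgeR, unadjusted p = 0.169), or 0.07 without saline mouse 8_3. Gria1, the most abundant of the class per kb of exon, ranged from 278 to 436 CPM (median 368) with adropin and from 242 to 516 (median 378) with saline, a log2 fold change of -0.08 (standard error 0.13). Gria2, whose edited subunit makes the channel impermeable to calcium, ranged from 442 to 703 CPM (median 532) and from 501 to 739 (median 514), a log2 fold change of 0.02 (standard error 0.11). Gria4 differed by 0.05.

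Metabotropic genes had unadjusted p of 0.277 or more. Grm3, a group II receptor that glia also make, had the smallest, with 29.4 to 67.2 CPM (median 53.0) with adropin and 27.7 to 60.6 (median 42.5) with saline and a log2 fold change of 0.17 (standard error 0.16, edgeR, unadjusted p = 0.277), which was 0.10 without saline mouse 5_4 and 0.26 without saline mouse 5_3. Grm2, the other group II receptor and the highest per length, ranged from 74.9 to 95.4 CPM (median 90.1) and from 57.5 to 102 (median 82.7), a log2 fold change of 0.09, or 0.03 without saline mouse 5_4. Grm5, Grm7 and Grm8 had log2 fold changes of 0.09, 0.06 and 0.01. Grid1, of the delta class, ranged from 73.6 to 93.4 CPM (median 86.2) with adropin and from 59.7 to 92.0 (median 80.8) with saline, a log2 fold change of 0.10 (standard error 0.08, edgeR, unadjusted p = 0.261), or 0.05 without saline mouse 8_3.

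None of the 12 tested GABA-A genes passed. Gabrb2 had the largest difference of the class, with 37.2 to 119 CPM (median 80.4) with adropin and 23.3 to 87.7 (median 63.0) with saline, and the widest spread between mice. Its log2 fold change was 0.43 with a standard error of 0.27 (edgeR, unadjusted p = 0.126), and 0.54 without adropin mouse 4_3 (unadjusted p = 0.0477). Gabra3 differed by 0.13 and was past 0.05 without saline mouse 7_1. Gabra4 had 58.5 to 84.45 CPM (median 66.0) with adropin and 54.7 to 72.3 (median 63.5) with saline, a log2 fold change of 0.12. Gabrd had 49.7 to 95.7 CPM (median 70.6) and 42.4 to 94.7 (median 62.5), a log2 fold change of 0.12 that ran from 0.05 to 0.22 when 1 mouse was left out. Gabrg3 differed by 0.12. Gabra2 ranged from 22.8 to 51.3 CPM (median 32.4) with adropin and from 26.8 to 49.8 (median 30.9) with saline, and its log2 fold change of 0.0009 took either sign among the alternatives. Gabra5 had 38.8 to 69.3 CPM (median 52.6) with adropin and 40.2 to 88.7 (median 58.6) with saline, and 1 of 8 adropin mice lay above the saline median. Its log2 fold change was -0.14, and -0.03 without saline mouse 6_1. Gabrg1 and Gabrb1 had log2 fold changes of -0.07 and -0.01.

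Both GABA-B genes were above 0. Gabbr2, the subunit that couples to the G protein, ranged from 379.6 to 547 CPM (median 488) with adropin and from 359.6 to 502 (median 420) with saline. Of the adropin mice 7 of 8 lay above the saline median, and the log2 fold change was 0.16 with a standard error of 0.08 (edgeR quasi-likelihood test, unadjusted p = 0.0731, adjusted p = 0.874). Gabbr2 was past 0.05 without adropin mouse 3_3 (0.19), adropin mouse 4_3 (0.21), saline mouse 5_3 (0.19) or saline mouse 7_1 (0.20), and with the exon length offset (0.13). Gabbr1, the subunit that binds GABA, ranged from 733 to 877 CPM (median 831) and from 730 to 874 (median 802), a log2 fold change of 0.03 (standard error 0.05) that ran from 0.0094 without saline mouse 5_4 to 0.06 without adropin mouse 4_3.

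Ratios of 2 subunits within a mouse need no scaling between libraries. Of 4 that were compared, 3 are given. The log2 ratio of Gabbr1 to Gabbr2 counts was 0.79 ± 0.10 with adropin and 0.92 ± 0.08 with saline (SD, n = 8 each). The difference of -0.13 had a two-sided exact permutation p of 0.0160, which was 0.0640 after adjustment over the 4 ratios and so did not pass. Of the adropin mice, 1 lay above the saline median (4_3), with a range from 0.66 to 0.95 against 0.80 to 1.02 in saline mice. Leaving out 1 mouse gave differences from -0.15 to -0.11, each with an unadjusted exact permutation p below 0.05, and without the 2 deepest libraries it was -0.11 (exact permutation p = 0.0546).

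The NMDA ratio of Grin2a to Grin2b ranged from -5.91 to -4.17 on the log2 scale with adropin and from -6.04 to -4.14 with saline, with means of -4.74 ± 0.62 and -5.06 ± 0.53 (difference 0.32, exact permutation p = 0.278). The difference was 0.18 without saline mouse 5_4, 0.49 without adropin mouse 4_3 (exact permutation p = 0.0699) and 0.19 without the 2 deepest libraries. For Gria2 to Gria1 the means were 0.60 ± 0.19 and 0.53 ± 0.38 (difference 0.07, exact permutation p = 0.643). Adjusted permutation values over the 4 ratios were 0.556 and 0.643, and both ratios varied more between mice of a group than between groups.

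Members varied together across mice. After subtracting group means, the 703 pairs of tested members had a median Pearson r of 0.24 over the 16 mice. The highest was that of Gabbr1 with Gabbr2 (0.96), the pair that forms 1 receptor, followed by Gabbr1 with Gabrb2 (0.95), Grid1 with Grm7 (0.95) and Gabrb2 with Gabbr2 (0.95). Grin2a was most like Grm3 (0.91), Gabbr1 (0.90) and Gabrb2 (0.86), and Grik3 most like Gabbr1 (0.87), Grm3 (0.84) and Grin2a (0.82). Grin2b had its highest value with Gria1 (0.67), and 0.64 with Grm5. The lowest value was that of Gabrd with Grik2 (-0.87), and Grm3 with Grik4 was also low (-0.84). These pairs share libraries, depth and tissue composition, and they carry no test.

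The lowest levels lay mostly in few mice. Saline mouse 5_4 had the lowest level of 14 of the 38 tested members, among them Grin2a, Gabrb2, Gabbr1, Gabbr2 and Grm3, while it had the highest Gria2, Gabrb1 and Grik4. This mouse also had the lowest cortex (-1.10) and astrocyte (-1.46) marker scores, and adropin mouse 4_3 had -1.06 and -1.12. The part of tissue makeup in these levels was not tested. Saline mouse 8_3 had the lowest level of 12, among them Grin2b, Grik3 and Gria1, and adropin mouse 7_4 that of 7. The highest levels were spread over 11 mice, with 7 members in adropin mouse 1_3, the deepest library, 5 each in adropin mouse 2_4 and saline mouse 6_1 and 4 in saline mouse 8_3. Among the 4 GABA-A genes clustered on chromosome 5 (Gabrg1, Gabra2, Gabra4 and Gabrb1), r ranged from -0.48 to 0.75.

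Some subunits are largely confined to certain brain regions, and others are stronger in some regions. Gabra6, made by granule cells of the cerebellum, had 1612 reads (34.9 CPM) in saline mouse 8_3 and at most 10 reads (0.242 CPM) in the other 15 mice. In the same mouse Grm4, also strong in granule cells, reached 86.4 CPM against a median of 35.6 and at most 41.9 elsewhere. Grin2c reached 99.9 against a median of 55.8 and at most 62.7, so both genes were well counted in the other mice too. The log2 fold change of Grm4 was -0.22 with all mice and 0.05 without mouse 8_3. That of Grin2c was -0.15 and -0.01. Gabra6 was past 0.05 in edgeR when no filter was applied, on the reads of this mouse.

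**Figure D5:**
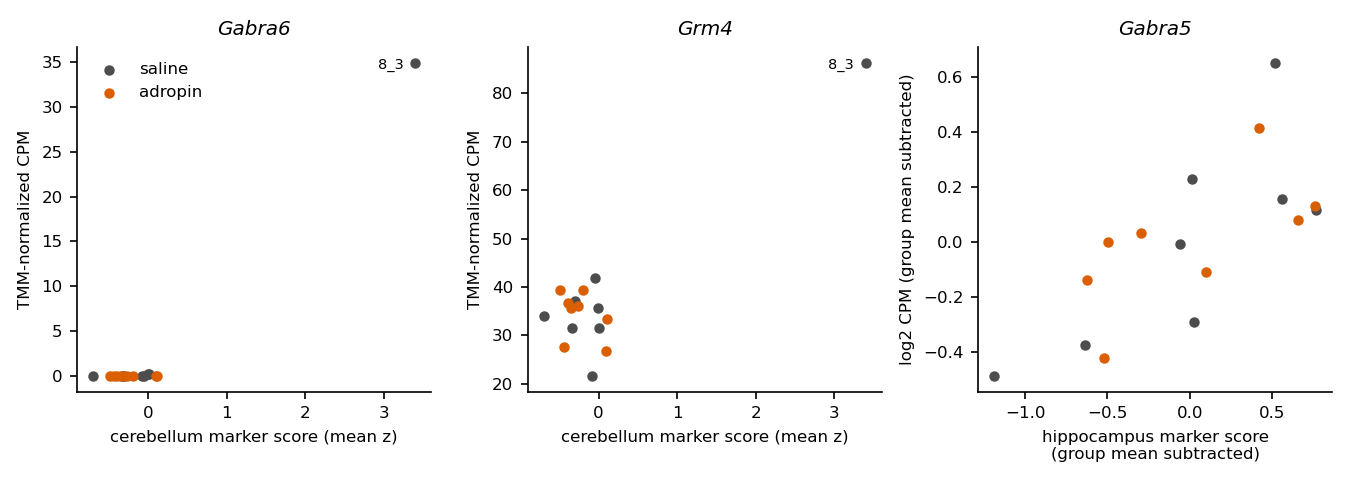
Gabra6 and Grm4 levels (TMM-normalized CPM) against the cerebellum marker score, and Gabra5 against the hippocampus marker score with group means subtracted from both axes, for 8 saline (grey) and 8 adropin (orange) mice. Saline mouse 8_3 lies alone at a cerebellum score of 3.40, and the Gabra5 points rise with the hippocampus score (r = 0.73).

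Relations of 8 members to regional marker scores were computed on group-centred values, each with 100000 permutations and adjusted over all 8, and 7 are given. Gabra5, the alpha subunit typical of hippocampal pyramidal cells, rose with the hippocampus score over 16 mice (Pearson r = 0.73 with a permutation p of 0.00136 and 0.0109 after adjustment, Spearman rho = 0.73 with a permutation p of 0.00211 and 0.0169 after adjustment). It held without the 2 mice farthest from the median score (r = 0.64, permutation p = 0.0129). Gabrd, strong in the thalamus, had r = 0.54 with the thalamus score (permutation p = 0.0305, adjusted p = 0.0814) and rho = 0.58 (permutation p = 0.0196, adjusted p = 0.0782), and 0.68 without the farthest 2 mice, and did not pass adjustment. Grik4 with hippocampus markers (r = 0.45, rho = 0.46, permutation p = 0.0826 and 0.0727) and Gabra4 with striatum markers (r = 0.20, rho = 0.18, permutation p = 0.471 and 0.504) did not pass.

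With the cerebellum score, mouse 8_3 forms a cluster of its own and no pooled value was computed. Over the other 15 mice r was 0.61 for Gabra6 (permutation p = 0.0157, adjusted p = 0.0628) and rho was 0.50 (permutation p = 0.0617), at 0 to 10 reads a mouse, and 0.49 without the farthest 2 mice. It was -0.40 for Grin2c and -0.14 for Grm4 (permutation p = 0.141 and 0.631), with rho of -0.42 and -0.11 (permutation p = 0.124 and 0.686).

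Markers of brain regions and cell types were measured in the same libraries. The 8 hippocampus markers all had log2 fold changes below 0 (median -0.36), with summed levels of 310.1 to 663 CPM in adropin mice and 334 to 728 in saline mice, and 1 (Lct) passed at an unadjusted p below 0.05. Of the 6 cortex markers 5 were above 0 (median 0.24) and 1 (Cux2) passed, with summed levels of 616 to 1086 and 560.0 to 824 CPM. All 5 tested choroid plexus markers were lower at that threshold, with summed levels over the list of 11.3 to 73.6 CPM in adropin mice and of 12.6 to 2465 CPM in saline mice. Without saline mouse 8_3 the saline maximum was 329 CPM and 2 of the 5 (Kl and Prlr) passed. Of the 9 striatum and 7 thalamus markers 1 in each list was lower (Tac1 and Prkcd), as was 1 of the 5 tested cerebellum markers (Car8), which did not pass without mouse 8_3. The 5 oligodendrocyte markers lay below 0 (median -0.18, none passed) and the 5 microglia markers above 0 (median 0.14, Cx3cr1 passed). The 5 neuron markers had a median of 0.02 and summed levels of 4949 to 6414 and 4719 to 5694 CPM, and none of them passed. Without mouse 8_3, 2 markers passed in each of the hippocampus (Lct and Dsp, list median -0.49), cortex (Cux2, and Neurod6 in the other direction, list median 0.25) and thalamus (Prkcd, and Rora in the other direction) lists. The neuron median was then 0.06 with 5 of 5 above 0, against 4 of 5 with all mice, and the microglia median 0.08. Each marker named here as passing with all mice had an edgeR adjusted p of 0.874. The part of tissue makeup in the receptor fold changes was not tested.

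The partners of these receptors were counted as 6 lists of 54 genes, all of which passed the filter. Of these 38 lay above 0, the median log2 fold change was 0.05, and 4 (7.41%) were past an unadjusted p below 0.05, 2 in each direction. Over all genes tested, 49.2% lay above 0 and 3.99% passed. Among auxiliary subunits of AMPA and kainate receptors 9 of 13 were above 0 and 1 passed, and among scaffolds of excitatory synapses it was 11 of 14 and 1. Of the GABA-A scaffold and assembly genes 6 of 7 were above 0 and none passed, of the GABA-B auxiliary genes 2 of 4 and 1 passed, of the genes for glutamate supply and uptake 4 of 9 and 1 passed, and of those for GABA supply and uptake 6 of 7 and none passed.

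Gsg1l, an auxiliary subunit of AMPA receptors, was the clearest of these, with 86.3 to 116 CPM (median 104) in adropin mice and 71.8 to 98.7 (median 82.9) in saline mice. Its log2 fold change was 0.28 with a standard error of 0.07 (edgeR quasi-likelihood test, unadjusted p = 0.00125, adjusted p = 0.874), and it stayed past 0.05 unadjusted in all 16 fits that left out 1 mouse. Kctd16, a cytoplasmic auxiliary subunit of the GABA-B receptor, ranged from 10.4 to 16.2 CPM (median 12.1) and from 7.87 to 13.5 (median 9.95), a log2 fold change of 0.30 (standard error 0.12, edgeR, unadjusted p = 0.0199), and 0.24 without adropin mouse 1_3 (unadjusted p = 0.0505) or 0.23 without the 2 deepest libraries (unadjusted p = 0.0740). Homer3 (-0.60, edgeR, unadjusted p = 0.0259) and the glutamate transporter Slc1a6 (-0.49, edgeR, unadjusted p = 0.0490), both strong in Purkinje cells, were highest in saline mouse 8_3 at 24.2 and 36.8 CPM. Without this mouse they differed by -0.26 (unadjusted p = 0.0824) and -0.12 (unadjusted p = 0.131). Both calls were also lost with limma-voom, at -0.45 for Homer3 (unadjusted p = 0.0692) and -0.36 for Slc1a6 (unadjusted p = 0.110). The call of Slc1a6 was lost too without any 1 of the 8 adropin mice, at -0.51 to -0.45, and with the offsets for exon length (-0.43) and GC content (-0.48) and without the 2 deepest libraries (-0.49).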

How the data were processed

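RNA from the brains of 16 mice was sequenced after poly-A selection with random-hexamer priming. Reads were mapped by the authors with STAR (Ensembl release 76 assembly), and the deposited values are raw counts per gene of featureCounts, limited to reads with 1 alignment and 1 gene. A deposited table of CPM made from the same counts was not used. Repeated entries (276 of 40757) were dropped. TMM factors came from edgeR 4.0.16 under R 4.3.3 and used every gene. A gene was tested if it exceeded 1 CPM in 7 or more mice and was no ribosomal RNA gene (355 left out), which left 14949 genes. The groups were compared in edgeR by the quasi-likelihood test, with p-values adjusted by Benjamini-Hochberg over all of these genes. The labels give separate sample numbers, not what those numbers mean, and each mouse was 1 replicate. Within groups, counts of any pair of mice differed by more than sampling noise (lowest chi-square per degree of freedom 7.15). Ratios used a pseudocount of 0.5 and two-sided exact permutation over 12870 divisions, and marker scores used log2 TMM-normalized CPM (prior count 2). Exon lengths and coordinates come from GENCODE M21 on GRCm38, found for all 46 members. Whether counting used strand is not given. If it did not, the limit to 1 gene left out reads on exon bases that members share with other genes, such as Grin1 with Grin1os (1307 bases) and Grin2b with Gm14329 (143). Values of 5 members are not reported here, nor are the 1 ratio and 1 relation that need them, but counts and medians over the members include them. Per the rule for naming, the other members are accounted for, and partner genes are named past 0.05. Ranges are given for members at an unadjusted p below 0.05, the most abundant and smallest-p member of each class and those of the ratios and correlations. Of the last, Gabra6, Grin2c and Grm4 are given instead as mouse 8_3 against the other mice. Other members' values and the choice of printed promoters were added after seeing the data. The members, lists and rules were chosen with earlier results of these data known. The script was checked on simulated counts. Alternatives were DESeq2 1.42.0, limma-voom (limma 3.58.1), other size factors, filters, blocks, offsets and left-out mice. Standard errors of the tested members ran from 0.05 to 0.29, and the part of depth in them was not tested.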

Additional observations from a re-analysis of the deposited data

Results flagged for a closer look

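A mouse was singled out when its gap to the nearest mouse of its group, divided by the group's range, passed Dixon's 95% critical value. Over 82 sets (41 genes in each group) chance alone gives about 4.1 and 10 were found. Saline mouse 8_3 accounted for 3 of them, with 34.9 CPM of Gabra6 (nearest 0.242), 99.9 of Grin2c (nearest 62.7) and 86.4 of Grm4 (nearest 41.9). Saline mouse 5_4 accounted for 3, with 102 CPM of Gabrb1 (nearest 57.5), 739 of Gria2 (nearest 554) and 46.1 of Grik4 (nearest 38.8). Adropin mouse 7_4 had 10.6 CPM of Gabrg1 (nearest 13.8) and 1.83 of Gabrr2 (nearest 1.02). Adropin mouse 4_3 had 0.635 CPM of Gabrr1 (nearest 0.219), and saline mouse 5_3 had 0.861 CPM of Gabre (nearest 0.431).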

How the results depend on the processing

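Counts of receptor genes past an unadjusted p below 0.05 (3 in edgeR) stayed within 1.5 times with other size factors, filters, limma-voom, DESeq2 (2, without Grin2a) and the offsets for exon length and GC content, at 2 to 4. They were 0 with the first label number as a replicate block (20 of 38 fold changes above 0), 0 with the second and 0 without the 2 deepest libraries, and from 0 to 6 when 1 mouse was left out. With these blocks Grin2b was at 0.19 and 0.19 (edgeR, unadjusted p = 0.168 and 0.147), Grin2a at 0.61 and 0.50 (unadjusted p = 0.149 and 0.171) and Grik3 at 0.33 and 0.24 (unadjusted p = 0.0665 and 0.102). Only mice 2_1, 2_3, 2_4, 5_3, 5_4, 5_5, 7_1 and 7_4 share a first number with a mouse of the other group. The fit with the first number as a block therefore compares the groups among these mice alone, and that number is partly confounded with treatment. The count was 0 without adropin mouse 5_5, 1 without saline mouse 2_3, 5_4, 8_1 or 8_3 or adropin mouse 2_4, and 6 without adropin mouse 4_3 or saline mouse 7_1. The share of all genes past 0.05 (3.99%) was 2.19% and 2.81% with the blocks and 2.03% without the 2 deepest libraries. It was 9.67% without mouse 4_3, 6.15% without 7_1 and 3.004% without 5_5. In the fits with 1 called member it was 3.76% without 2_3, 3.325% without 5_4, 3.53% without 8_1, 2.77% without 8_3 and 2.56% without 2_4. Whether the label numbers pair the mice was checked by correlating deviations from group means. The 5 adropin and saline pairs that share a first number had r from -0.27 to 0.22 (2 over 0.1), and the 17 that share a second number had r from -0.56 to 0.30 (7 over 0.1). Pairs within a group were not compared, so whether mice that share a number have a common origin was not tested. The count of partner genes (4) was 2 with limma-voom, 2 with the first number as a block and 2 without the 2 deepest libraries, and from 2 (without adropin mouse 1_3 or saline mouse 8_3) to 6 when 1 mouse was left out. With the first number as a block Kctd16 was at 0.21 (edgeR, unadjusted p = 0.224), Homer3 at -0.086 (unadjusted p = 0.807) and Slc1a6 at -0.24 (unadjusted p = 0.407), and with the second the call of Slc1a6 was lost (unadjusted p = 0.0647).

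The difference in the ratio of Gria2 to Gria1 was -0.0086 without saline mouse 5_3, and leaving out 1 mouse gave -0.0086 to 0.15. That of Gabbr1 to Gabbr2 was -0.11 without the 2 deepest libraries. The correlation of Gabra6 with cerebellum markers was 0.49 without the 2 farthest mice. That of Gabrd with thalamus markers was 0.22 with the median over markers, 0.48 with library size only and 0.46 without saline mouse 8_3. With the median over markers, r with the cerebellum score was 0.078 for Grm4. Some fold changes took the other sign. For Gabra2 they were -0.0076 with DESeq2 size factors, -0.018 with library size only, -0.010 with limma-voom, -0.0080 with DESeq2, -0.24 with the first and -0.018 with the second number as a block, -0.035 with the exon length offset, -0.00042 with the GC offset and -0.0078 without the 2 deepest libraries, and from -0.10 to 0.10 when 1 mouse was left out. For Gria2 they were -0.18 and -0.011 with these blocks, -0.071 with the exon length offset and from -0.031 to 0.094 when 1 mouse was left out. Gabbr1 was at -0.016 with the exon length offset, Grin2c at 0.082 and Grm4 at 0.094 with the first number as a block, Gria1 from -0.15 to 0.0020 and Grm4 from -0.31 to 0.045 when 1 mouse was left out. Causes were not tested.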
